A study of Danio rerio with 2 samples.

Results

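Clusters of open chromatin were examined in sorted zebrafish blood cells, as the 1904 accessible regions that lay in 100 kb windows holding 5 or more such regions. The regions came from ATAC-seq, an assay that tags nucleosome-free DNA with a transposase and sequences it. Peaks of the replicate 1 and replicate 2 lists that overlapped by 1 bp or more were merged, and a merged region counted as shared when each list gave it a peak. Each of the 25 chromosomes was cut into fixed windows from its first base, and regions were assigned by their midpoints. The members were 1904 of 13698 shared regions, or 13.9% (95% Wilson interval 13.3 to 14.5), and 35191 regions existed in all when those of a single list were counted. Because the members were chosen by the positions of these same peaks, their number and density are given as a description and support no claim of clustering.

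The cells carried the label hematopoietic stem cell and belonged to Tg(CD41:GFP,gata1:dsRed) fish. They were sorted by flow cytometry to keep those with the CD41 reporter and without the gata1 reporter. The series has 1 group of 2 replicates, each from 50000 fresh cells, with the undefined tag 3m in both titles and no treatment other than the sort. The labels leave the origin of the replicates unstated, so their spread may be technical. The p-values below come from read counts and cover counting error only, not the spread between samples. The CD41 promoter is also active in thrombocytes, the labels give no brightness gate, and peak lists name no genes, so the cell type could not be checked against its markers.

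Open chromatin marks stretches from which nucleosomes have been moved, mostly promoters and enhancers that transcription factors can reach. Such sites lie close together where genes are packed tightly or where a gene is served by several enhancers, an arrangement known in mammals from genes that set cell identity. Blood stem cells of adult zebrafish live in the kidney marrow and give rise to all blood lineages. No gene or regulatory sequence is named for the regions described here, because no GRCz10 genome or annotation was used.

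The dense windows numbered 338 of 13406, or 2.52% (95% Wilson interval 2.27 to 2.80), and spanned 33.8 Mb. The average window held 1.02 shared regions and 6461 windows held none. Members covered 0.913 Mb, which is 2.70% of the dense windows. Most clusters were small: 205 windows held exactly 5 regions, 81 held 6, 33 held 7, 12 held 8, 4 held 9 and 3 held 10. The windows of exactly 5 contributed 1025 members, or 53.8% of them. Just outside the limit stood 461 windows with 4 regions each. The number of windows rests on replicate 2, the shallower list: the peaks of replicate 1 alone gave 2252 dense windows in 423 runs, and those of replicate 2 alone gave 484 in 36 runs.

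**Figure D1:**
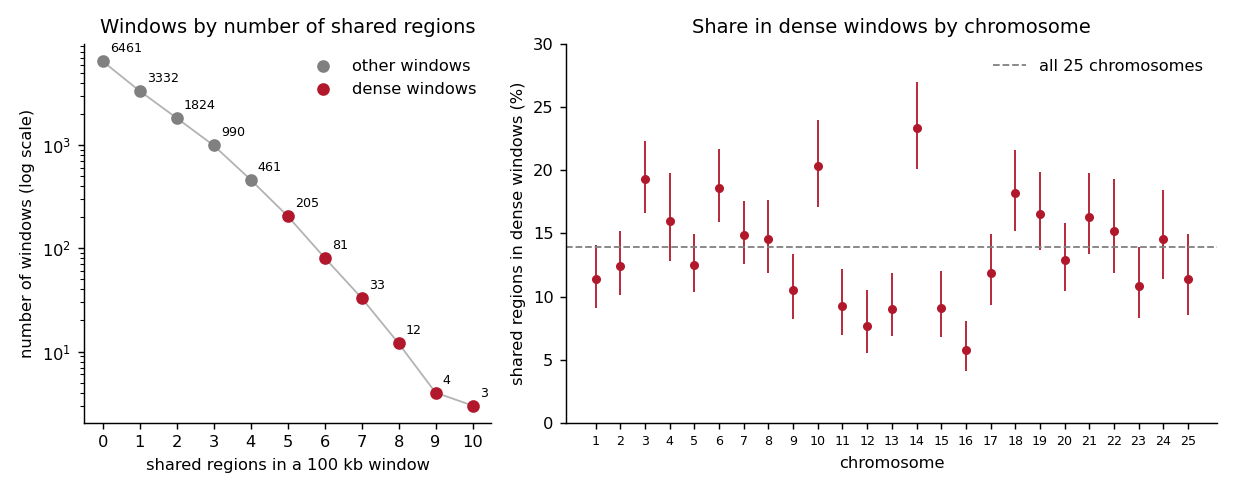
The left plot gives the number of 100 kb windows (log scale) against the shared regions they hold, with dense windows in red. The right plot gives the share of each chromosome's shared regions that lie in dense windows, with 95% Wilson intervals, and the dashed line marks the 13.9% of all chromosomes; chromosome 14 is highest at 23.4% and chromosome 16 lowest at 5.74%.

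The fixed grid decided which regions were members more than how many there were. With windows starting 50 kb later, 339 windows were dense and held 1874 members, of which 883 were among the 1904. The clusters below are therefore named as windows of this grid, and a cluster astride a window border can be missed.

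All 25 chromosomes carried dense windows, in unequal shares. On chromosome 14, 132 of 565 shared regions were members, or 23.4% (95% Wilson interval 20.1 to 27.02). Chromosome 10 followed with 20.3%, then chromosome 3 with 19.3%, chromosome 6 with 18.6% and chromosome 18 with 18.2%. The lowest shares were 5.74% on chromosome 16 (95% Wilson interval 4.07 to 8.03) and 7.66% on chromosome 12. Neighbouring regions of a window enter together, so these intervals, which cover counting error only, are too narrow. On chromosome 4, which had 766 windows and 431 shared regions, 11 dense windows lay before 27 Mb and 1 after it. That window, at 72600001 to 72700000, held 6 members. The parts before and after 27 Mb differ in length, and their shared regions are not given separately, so these counts do not compare densities. In the first and last whole Mb of the chromosomes, 17 of 500 windows were dense, or 3.40% (95% Wilson interval 2.13 to 5.38), an interval that includes the 2.52% of all windows. The last whole Mb stops at the last multiple of 1 Mb, so the partial Mb at the far end was left out. Dense windows lay there too, for example on chromosome 10 at 45300001 and 45400001. The count pools both ends and cannot show whether the very ends of chromosomes were denser.

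The 3 densest windows, with 10 shared regions each, were built differently. The one on chromosome 14 at 38500001 to 38600000 began with 4 regions inside 5 kb, between 38505281 and 38510213. The fold written by the authors' peak caller is the summit pileup plus 1, divided by the local background plus 1, and the added 1 lowers it most in the shallower replicate 2. The folds of these 4 were 3.77, 4.32, 8.09 and 4.09 in replicate 1 and 3.98, 4.66, 6.73 and 3.67 in replicate 2. In both replicates 3 of the 4 were low by fold, while all 4 were above the member median by reads. Replicate 1 summits had 39, 45, 88 and 44 extended reads over backgrounds of 9.62 to 10. The member median there was 30, and only the summit of 88 passed the upper quartile of 46. In replicate 2 the summits had 24, 29, 43 and 23, above a member median of 15 and an upper quartile of 22. The strongest regions of the window came next, at 38532113 to 38532909, where folds were 15.6 and 13.2, and then at 38537757 to 38538330, where they were 16.5 and 16.03. The remaining 4 regions, at 38549000, 38576250, 38579887 and 38589465, had folds of 4.78 to 7.51 in replicate 1 and 4.64 to 7.91 in replicate 2.

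On chromosome 2 the window at 43300001 to 43400000 had a single strong region, at 43346967 to 43347695, with folds of 15.9 and 11.4 and summits of 92 and 36 extended reads. A weak region at 43346301 to 43346681, with folds of 3.63 and 4.29, ended 285 bp before it. A second close pair, at 43355454 and 43356327, had folds of 5.43 and 3.93 in replicate 1 and 5.86 and 3.91 in replicate 2. The other 6 regions had folds of 5.44 to 9.84 in replicate 1 and 4.63 to 7.37 in replicate 2. No peak of a single replicate lay in this window.

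The window on chromosome 3 at 7100001 to 7200000 held narrow regions, with a median width of 275.5 bp against 421 bp on chromosome 2 and 448 bp on chromosome 14. Its first 6 regions formed 3 close pairs, starting at 7102813 and 7103472, at 7114218 and 7114770, and at 7127517 and 7128097. Within the pairs the midpoints lay 635, 616.5 and 563 bp apart. Each pair began more than 10 kb after the one before it. The folds of these 6 regions spanned 5.17 to 10.4 in replicate 1 and 4.92 to 13.3 in replicate 2. The regions at 7135377 and 7150714 stood alone with folds of 5.17 and 7.97 in replicate 1 and 6.79 and 8.51 in replicate 2. The last 2 regions, at 7173369 and 7189076, had folds of 13.8 and 15.4 in replicate 1 and 8.05 and 7.83 in replicate 2. The replicates thus ordered the regions of this window differently: the end of the window held the 2 highest folds in replicate 1, and the region at 7114770 held the highest in replicate 2. None of the 28 regions tested in these 3 windows differed in summit height past the threshold in the test described below, and their lowest adjusted p was 0.137, at 7114770.

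**Figure D2:**
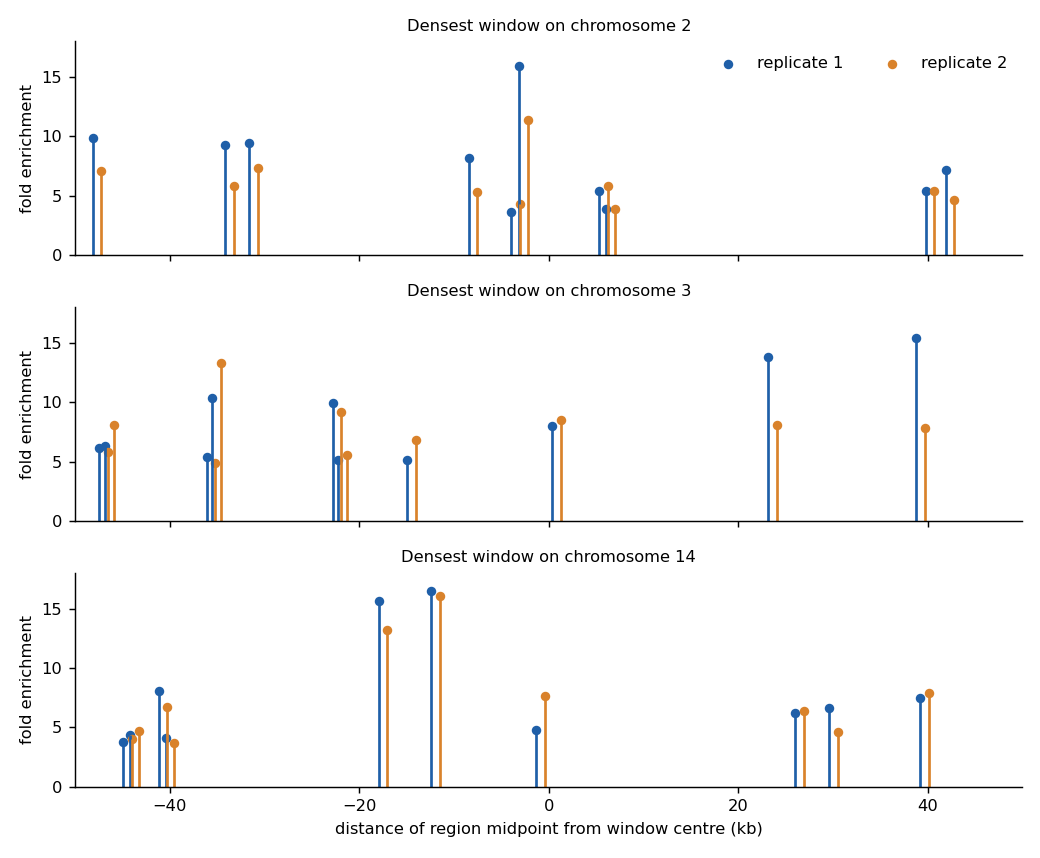
Fold enrichment of each shared region in the 3 densest windows against the distance of its midpoint from the window centre, in kb. Replicate 1 is blue and replicate 2 orange, drawn 0.45 kb to either side of the midpoint; the chromosome 14 window has its 2 tallest regions left of the centre, at folds of 13.2 to 16.5, and a group of 4 close regions at its left edge, 3 of them low.

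Windows of 9 were found on chromosomes 4, 6, 7 and 8, starting at 22700001, 49800001, 22500001 and 30900001. Their median folds spanned 7.33 to 9.53 in replicate 1 and 6.67 to 7.48 in replicate 2. The chromosome 4 window had the widest regions among these, with a median of 625 bp, and the highest background, 5.94 and 2.96 extended reads. Windows of 8 numbered 12, and 3 of them lay on chromosome 7, at 21400001, 27500001 and 29900001, so that this chromosome held 4 of the 19 windows with 8 or more regions. On chromosome 10 there were 3, at 100001, 16800001 and 28300001, and on chromosome 21 there were 2, at 2100001 and 5700001. Chromosomes 13, 17, 18 and 20 had 1 each, at 36400001, 12800001, 5600001 and 23300001. Among these 12 windows the median fold spanned 6.34 to 9.87 in replicate 1 and 4.31 to 8.78 in replicate 2. The lowest values of both replicates belonged to the chromosome 7 window at 21400001, and the chromosome 13 window was highest in both.

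Dense windows were mostly solitary. In all, 288 had no dense neighbour, 19 runs joined 2 windows and 4 runs joined 3, so that 50 windows with 293 members lay in 23 runs. The longest run by members was on chromosome 3 at 7000001 to 7300000, around the densest window there, with 5, 10 and 7 regions in its windows. Its 22 members had median folds of 10.1 in replicate 1 and 8.42 in replicate 2 and a median width of 310 bp. A run at the very start of chromosome 10, from 1 to 300000, held 19 members with medians of 6.05 and 6.25, and none reached a fold of 10 in both replicates. On chromosome 6 the run at 50400001 to 50700000 held 17 members with medians of 7.72 and 6.04. On chromosome 24 the run at 16800001 to 17100000 held 15, with 6.16 and 5.50. The fifth, on chromosome 14 at 38400001 to 38600000, held 16, with 7.80 and 6.54. Among these 5 runs the chromosome 3 run was the strongest by median fold in both replicates. Of all 23 runs, the one on chromosome 3 at 61900001 to 62100000, chosen after its values were seen, had the highest medians in both, 13.97 and 8.62 over 11 members.

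Windows beside a dense window were fuller than windows elsewhere. Of 658 windows next to a dense one, 50 were dense themselves, or 7.60% (95% Wilson interval 5.81 to 9.88), against 2.52% of all windows. The other 608 held 1.43 shared regions on average, and the 12460 windows that were neither dense nor next to one held 0.877. No shared region was present in 27.8% of the former and in 50.5% of the latter. Windows of a grid split clusters at their borders, which by itself places regions of 1 cluster in neighbouring windows. The 50 dense neighbours form 23 runs in which each counts as the neighbour of another. The interval of 5.81 to 9.88, which covers counting error only, is therefore too narrow.

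Within dense windows, consecutive members lay a median of 11080 bp apart, with quartiles of 5295 and 20194 bp over 1566 distances between midpoints. The median was 14269 bp in windows of 4 and fell to 12028, 10857 and 9781 bp in windows of 5, 6 and 7, an order that the counting of regions per window sets. The members of a window spread over a median of 68948 bp from first to last midpoint, and in 67 of 338 windows they fitted into 50 kb. Distances were uneven. The bin from 5 to 8 kb held 225 distances against 83 in the bin from 3.2 to 5 kb, bins of similar width on a log scale. A smaller group lay between 0.5 and 0.8 kb, with 88 distances, and 39 lay between 1.3 and 2 kb. Windows of 2 to 4 regions had the same rise at 5 kb, from 181 to 458. The caller's settings are not given, and a span of 10 kb was taken for the local background from its step of 0.02 extended reads. Over such a span, a region within 5 kb of a summit adds reads to its background. Whether this shaped the rise was not tested.

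**Figure D3:**
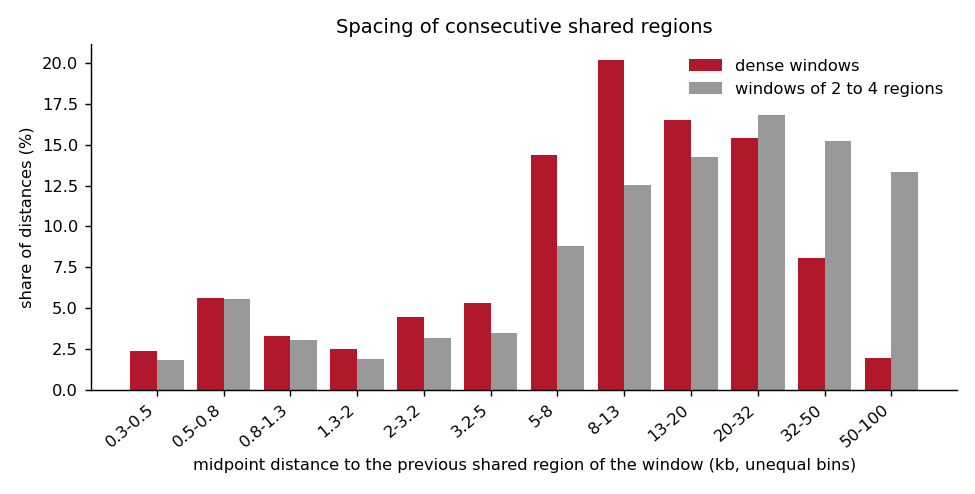
Share of the distances between midpoints of consecutive shared regions in a window, in unequal bins in kb, for dense windows in red and windows of 2 to 4 regions in grey. Both have a low group under 2 kb and a step upward at 5 kb, from 5.30% to 14.4% in dense windows.

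The members with the closest midpoints, the distance by which the pairs below are ranked, nearly touched. On chromosome 17, the regions at 24420616 to 24420840 and 24420953 to 24421278 were separated by 112 bp, and their midpoints by 387.5 bp. The first had folds of 5.19 and 5.56 and the second of 14.9 and 9.84, so the second was the stronger in both replicates. On chromosome 5, 122 bp separated the regions at 12853504 to 12853824 and 12853947 to 12854164, with folds of 9.63 and 11.7 in the first and 6.29 and 6.67 in the second. The next pairs lay on chromosome 25 at 6319870 and 6320253, on chromosome 17 at 45722254 and 45722656, and on chromosome 6 at 250865 and 251283, with 102, 115 and 128 bp between their edges. In all, 369 members, or 19.4% (95% Wilson interval 17.7 to 21.2), had another shared region less than 1 kb from their edge, against 9.505% of the other shared regions. Density raises this share by itself.

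The shortest cluster held the pair with the closest midpoints. In the chromosome 17 window at 24400001 to 24500000, chosen after its values were seen, the midpoints of all 5 members lay within 7241 bp. After the pair at 24420616 and 24420953 came a stretch of 5635 bp and then 3 regions, at 24426914, 24427295 and 24427781, with 143 and 191 bp between them. Their folds were 7.58, 7.58 and 5.04 in replicate 1 and 6.36, 7.62 and 6.36 in replicate 2. These were narrow regions, 238 to 377 bp wide, with summits of 36, 36 and 24 extended reads in replicate 1 and 20, 24 and 20 in replicate 2. Upstream of the first member no shared region was found for 329426 bp, while the next window, up to 24600000, was dense as well.

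Members were no stronger than other shared regions when measured by fold, and slightly taller when measured by reads. The median fold of members was 8.24 in replicate 1 (quartiles 6.15 and 11.3) and 6.80 in replicate 2 (5.56 and 8.67). The 11794 other regions had medians of 8.62 (6.30 and 12.1) and 6.97 (5.65 and 9.06). The pileup at the summit, a count of extended reads, had medians of 30 and 15 in members and 27 and 13 in other regions. Local background was higher around members, where replicate 1 had a median of 2.6 extended reads against 2.22, and replicate 2 one of 1.26 against 1.04. As ratios of medians, members stood at 0.956 and 0.975 by fold, 1.11 and 1.15 by pileup and 1.17 and 1.21 by background in replicates 1 and 2. Without the added 1, the median ratio of pileup to background was 11.3 and 11.9 in members and 12.2 and 13.3 in other regions. Both replicates thus had the same order for each of the 3 measures, while the quartiles of members and other regions overlapped widely. Strength helps decide whether a peak is in both lists, and an exact test over 2 samples cannot give a two-sided p below 0.5, so no test was made.

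**Figure D4:**
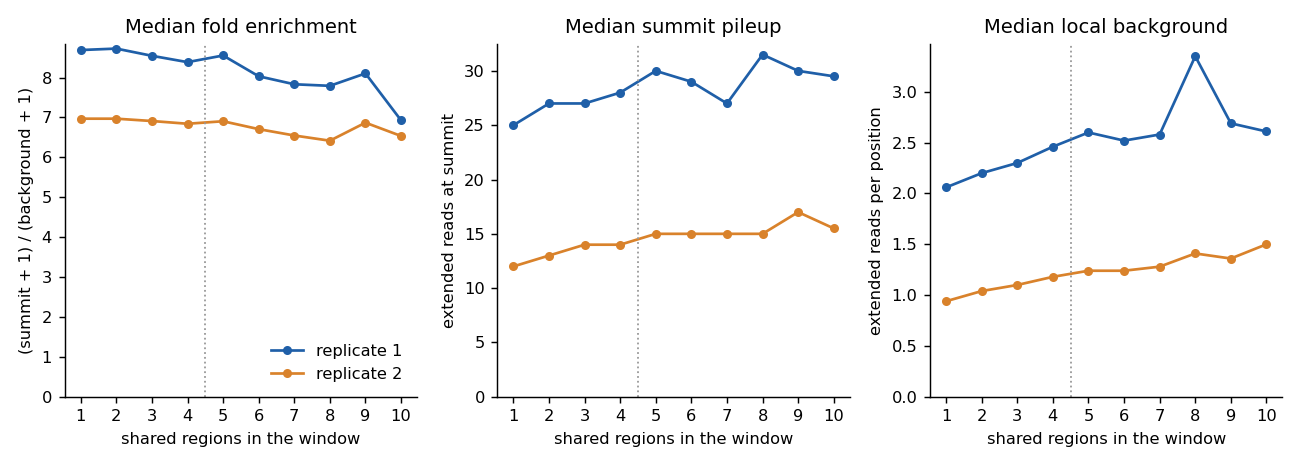
Median fold enrichment, median summit pileup and median local background of shared regions against the number of shared regions in their window, for replicate 1 in blue and replicate 2 in orange; members lie right of the dotted line. Background rises from 2.06 and 0.94 extended reads for regions alone in their window to 2.60 and 1.24 in windows of 5. Over the same windows the median fold changes little, and it is 8.03 and 6.71 in windows of 6 and 6.93 and 6.54 in windows of 10.

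The gradient did not begin at 5 regions. Regions alone in their window had median backgrounds of 2.06 and 0.94 extended reads, those in windows of 4 had 2.46 and 1.18, and those in windows of 5 had 2.60 and 1.24. Median folds just outside and just inside the limit were 8.39 and 8.55 in replicate 1 and 6.84 and 6.90 in replicate 2. In windows of 6, 7, 8, 9 and 10 the replicate 1 medians were 8.03, 7.83, 7.79, 8.10 and 6.93. Those of replicate 2 were 6.71, 6.55, 6.42, 6.87 and 6.54. In windows of 8 the background of replicate 1 reached 3.35, and it was 2.94 without the chromosome 10 window at 16800001, whose summits differed between the replicates.

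Near neighbours accompanied the higher background. Another shared region lay within 5 kb, midpoint to midpoint, of 687 members, or 36.1%, and of 1933 other regions, or 16.4%. Members with such a neighbour had median backgrounds of 3.6 and 1.82 extended reads, pileups of 33 and 17 and folds of 7.27 and 6.15. The 1217 members without one had backgrounds of 2.20 and 1.06, pileups of 28 and 14 and folds of 9.02 and 7.20. Among other regions the same split gave folds of 7.42 and 6.45 with a neighbour and 8.89 and 6.99 without. Backgrounds of these other regions were 3.3 and 1.7 with a neighbour and 2.06 and 0.96 without. Members without a near neighbour thus had folds at or slightly above those of other regions without one, in both replicates. Members with a near neighbour had folds slightly below those of other regions with one, in both replicates. Reads of the neighbour would enter a background taken over 10 kb, and its part in the fold was not tested.

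Strong regions were spread thinly over the clusters. A fold of at least 10 in both replicates was reached by 267 members, or 14.02% (95% Wilson interval 12.5 to 15.7). Among other regions the share was 17.4% (95% Wilson interval 16.76 to 18.1). Neighbouring regions of a window are not independent, so these intervals, which cover counting error only, are too narrow. The lower share was not particular to members: it was 19.1% for regions alone in their window and 15.6% in windows of 4. In windows of 5 it was 16.7%. The 267 members lay in 199 of the 338 dense windows: 140 windows had 1, 51 had 2, 7 had 3 and 1 had 4. In the remaining 139 windows no member reached that fold in both replicates. Within a window, the strongest member had a median of 2.24 times the lower fold of the weakest, with a range from 1.20 to 5.32.

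Of the 10 strongest members by the lower of both folds, 9 lay in windows of exactly 5, which held 53.8% of all members. Chromosome 1 held the strongest, at 54087511 to 54087910, with folds of 27.7 and 20.0 and summits of 123 and 45 extended reads. The region on chromosome 10 at 35313340 to 35313924 had 19.8 and 19.1. On chromosome 11, the region at 36017328 to 36017814 had folds of 22.8 and 19.0. The fourth lay on chromosome 5 at 2440325 to 2440778, with 21.5 and 18.8. Chromosome 3 had a pair of these members, the first at 11640740 to 11641273 (29.3 and 18.6), the other at 32710694 to 32711384 (21.3 and 17.99). The rest lay on chromosome 25 at 23485245, chromosome 6 at 101806, chromosome 20 at 23355093 and chromosome 21 at 43489716, with folds of 19.2 to 23.5 in replicate 1 and 17.97 to 18.4 in replicate 2. The exception in a fuller window was the chromosome 20 region, whose window at 23300001 held 8. A fold of at least 10 in both replicates was reached by 16.7% of members in windows of 5 and of 9. The shares in windows of 6, 7, 8 and 10 were 9.88%, 13.0%, 8.33% and 13.3%.

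Members were slightly narrower than other shared regions. Their merged width had a median of 441.5 bp (quartiles 328 and 585) against 465 bp (342 and 613), and ran from 202 to 1628 bp. The peaks themselves had medians of 366.5 against 389.5 bp in replicate 1 and 331 against 353 bp in replicate 2. At matched fold the difference was kept in 3 of the 4 fold ranges in both replicates. For folds of 5 to 8 the medians were 326 and 347 bp in replicate 1 and 289 and 293 bp in replicate 2. For folds of 12 or more they were 448 and 455 bp in replicate 1 and 554 and 544 bp in replicate 2, where members were the wider. The difference was not particular to members: the median merged width was 476.5 bp for regions alone in their window. It was 451 bp in windows of 4 and 448 bp in windows of 5. Windows of 6, 7, 8, 9 and 10 had 426, 456, 419, 494.5 and 390.5 bp. Wide regions merge and count once, so the rule is not independent of width. The widest member lay on chromosome 11 at 25182119 to 25183746, 1628 bp long, with low folds of 3.71 and 4.64 over high backgrounds of 17.0 and 5.90. The next were on chromosome 4 at 18673302, chromosome 15 at 509712, chromosome 19 at 48357598 and chromosome 2 at 47885184, from 1340 to 1425 bp wide, and each merged 2 peaks of one list with 1 of the other. Regions built from more than 1 peak of a list made up 4.36% of members and 4.42% of other regions.

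Peaks of a single replicate were also denser in these windows. The rule set them aside as not shared, so their density is a description and no separate support. Replicate 1 had 793 such peaks there, or 23.5 per Mb, against 14.4 per Mb in windows with fewer than 5 shared regions. In replicate 2 there were 100, or 2.96 per Mb, against 1.41. The density rose over windows with no, 1 or 2, and 3 or 4 shared regions, from 11.5 to 16.3 and 20.1 per Mb in replicate 1 and from 1.06 to 1.63 and 2.21 in replicate 2. Windows of 5, 6 and 7 or more had 22.3, 26.05 and 23.8 per Mb in replicate 1 and 2.63, 3.58 and 3.27 in replicate 2. Both replicates thus rose up to windows of 6. These peaks were weak in dense windows too, with median folds of 5.17 in replicate 1 and 5.04 in replicate 2. Of the 338 dense windows, 37 had no peak of replicate 1 only, and 253 had none of replicate 2 only. Windows are not replicates, so the densities were not tested.

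Summits of the replicates lay about equally close in members and in other shared regions. Those of the highest peaks lay a median of 27 bp apart in members and 28 bp in other regions, and 88.6% and 87.9% were within 150 bp. A region counts as shared only where peaks of both lists overlap, which by itself keeps summits close in both groups. The closeness is therefore a description and no measure of replicate agreement. Across members, which are not independent of each other, the Spearman correlation of fold between replicates was 0.709, against 0.726 across other regions. Peaks of a single list do not enter these correlations. The deposited fold was higher in replicate 1 in 73.1% of members and in 74.9% of other regions, but the direction turned without the added 1: for plain pileup over background, the shares were 44.8% and 43.7%. Replicate 1 was the deeper library, with 2.28 times the genome-wide background of replicate 2.

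Summit heights were then compared between the replicates by an exact binomial test of the pileups, fitted over all 13094 regions with 1 peak from each list. The expected ratio was that of the summed pileups, 2.12. Of 1821 members tested, 10 passed an adjusted p of 0.05 in this exact test, or 0.549% (95% Wilson interval 0.299 to 1.01), against 0.428% of all regions tested. All 10 were higher in replicate 1, the direction of 0.374% of all regions tested, and no member was called higher in replicate 2, against 0.0535%. The share among members was thus close to that of all regions. Without regard to direction, 143 members had an unadjusted exact p under 0.05, or 7.85%, against 949 of all regions tested, or 7.25%. The direction of the calls depended on the expected ratio. At 2.12, the calls over all regions were 49 with the higher summit in replicate 1 and 7 with the opposite direction. Under the ratio of genome-wide backgrounds, 2.28, these were 37 and 15, together 0.397% of all regions tested. Among members 8 were called towards replicate 1 and 2 towards replicate 2, together 0.549% of members tested. With the median ratio of all pairs, the calls over all regions were 68 and 5, together 0.558%. Under that ratio 11 members were called, or 0.604%, all higher in replicate 1. The test compares these 2 libraries, treats extended reads as independent and says nothing about animals.

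A single cluster held 6 of the 10. In the chromosome 10 window at 16800001 to 16900000, the summit at 16842663 to 16843361 had 467 extended reads in replicate 1 but 42 in replicate 2 (adjusted p = 4.34e-34 by the exact test). At 16831213 to 16831606 there were 378 and 38, at 16839765 to 16840046 there were 363 and 48, and at 16835967 to 16836713 there were 306 and 44. The region at 16840522 had 211 and 30, and the one at 16881391 had 79 and 10. The other 2 regions of the window, at 16852481 with 69 and 11 and at 16880974 with 52 and 10, had exact binomial adjusted p values of 0.0608 and 0.337. The whole cluster was thus high in replicate 1, with pileup ratios of 5.2 to 11.1, and its summed pileups had a ratio of 8.26, while the next highest window had 3.41 and the median window 2.02.

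Backgrounds in this cluster moved with the summits, spanning 6.26 to 44.6 extended reads in replicate 1 but 0.68 to 5.36 in replicate 2. The folds therefore differed less, with 14 against 9.23 at 16842663 and 4.65 against 4.87 at 16840522. What sets this cluster apart in replicate 1 was not tested. With the cluster included, 0.428% of all regions tested passed. Outside it, 4 of 1813 members passed, or 0.221%. They lay on chromosome 11 at 25185411 to 25185786, with 248 and 55 extended reads (exact binomial adjusted p = 4.66e-05), on chromosome 16 at 43496962, with 159 and 36 (exact adjusted p = 0.0106), on chromosome 19 at 35841462, with 136 and 30 (exact adjusted p = 0.0235), and on chromosome 3 at 11640740, with 191 and 51 (exact adjusted p = 0.047). The chromosome 3 region, which is also the fifth strongest member, lost its call when the p was taken from the doubled smaller tail (exact adjusted p = 0.0523). Both it and the chromosome 19 region lost theirs when the ratio of genome-wide backgrounds was expected (exact adjusted p = 0.153 and 0.074). That ratio added the 2 calls higher in replicate 2, on chromosome 22 at 13018211, with 21 and 28 extended reads (exact adjusted p = 0.0398), and on chromosome 3 at 7073733, with 18 and 25 (exact adjusted p = 0.0475).

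**Figure D5:**
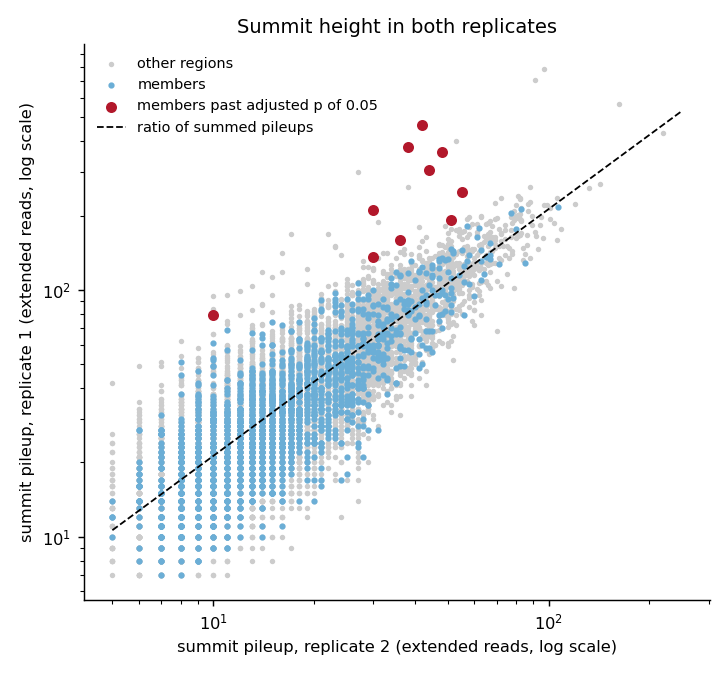
Summit pileup in replicate 1 against replicate 2, in extended reads on log scales, for other shared regions in grey, members in blue and the 10 members past an adjusted p of 0.05 in red. The dashed line is the ratio of the summed pileups, 2.12; all red points lie above it, 6 of them from the chromosome 10 window.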

How the data were processed

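The authors deposited 1 peak list per replicate, with positions in GRCz10. Named per the submitters' processing notes, with no roles, were MACS2, Picard, DESeq2, HTSeq 0.8.0, SAMtools 1.9 and Bowtie2 2.5.0. Settings of the peak caller and any shift for the transposase are not given in the sources used here. The deposited fold is the ratio of summit pileup plus 1 to local background plus 1, by the match described next. The deposited score is 10 times the deposited −log10 q, cut to a whole number, and the deposited −log10 p is the caller's.

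Lists held 33700 and 15814 nuclear peaks. Summit pileup and background were recovered from fold and −log10 p, as the whole number that matched within 0.0002, in all peaks of both lists. In replicate 2, 29 peaks had 2 matches, and the background nearest a multiple of 0.02 was taken, the step of a read of 200 bp in a 10 kb window. The lowest backgrounds, 1.32 and 0.578 extended reads, stand for depth. Read totals were not used here. Regions of several peaks took the values of the peak with the highest fold. Positions are printed 1-based. Summit heights were compared with a two-sided exact binomial test (scipy 1.17.1) and Benjamini-Hochberg adjustment over all pairs, after tests on simulated data.

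The members and lists were chosen with earlier results of these data known. Regions were named by rule: every window with the 3 highest counts, each region of the densest, the 5 longest runs, the 10 strongest, 5 widest and 5 closest members, and at most 10 members differing in height.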

Additional observations from a re-analysis of the deposited data

Results flagged for a closer look

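Mitochondrial peaks entered no comparison and stood out as signal outside the nuclear lists, with 8 in replicate 1 and 7 in replicate 2.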

How the results depend on the processing

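No paired analysis was possible because there is a single group. Among 123 recomputed values, 55 kept their call or stayed within a tolerance, 63 moved beyond it, 3 lost significance and 2 reversed. The 3 belonged to the summit heights of the chromosome 3 region at 11640740 and the chromosome 19 region at 35841462. The tolerance was 1.5 times for a count, the 95% Wilson interval for a share and 1 SD between replicates for a ratio or spacing. Causes of these changes were not tested, beyond the lower number of peaks or regions that some settings admit by construction. The replacement of fold by pileup, the test with the doubled smaller tail and the count without the chromosome 10 window were chosen after the data were seen. The counts of dense windows, members, their percent of shared regions and runs were 68, 358, 2.61% and 1 in windows of 50 kb, 36, 393, 2.87% and 0 in windows of 200 kb with 10 or more, 799, 3748, 27.4% and 90 with 4 or more regions, 133, 879, 6.42% and 8 with 6 or more, 172, 946, 8.83% and 10 for a −log10 q minimum of 5, 11, 58, 1.07% and 0 for a minimum of 10, and 221, 1221, 10.5% and 13 with reciprocal overlap of 50%. Replicate 2 alone gave 484 dense windows with 2773 peaks, 17.5% of its peaks, in 36 runs, and replicate 1 alone gave 2252 with 14123, 41.9% and 423. The median spacing was 12232 bp with 4 or more regions, 10217 bp with 6 or more, 11524 and 9596 bp with the q minimums of 5 and 10, and 11358 bp with reciprocal overlap. The ratio of member to other peak widths, 0.939 as the mean of both replicates, was 0.951 and 0.921 with 4 and 6 or more regions, 0.932 and 0.873 with the q minimums, 0.922 with reciprocal overlap, 0.963 against windows of 3 or 4, 0.909 against regions alone in their window, 0.948, 0.963 and 0.944 for folds under 5, from 5 to 8 and from 8 to 12, and 1.0015 (reversed) for folds of 12 or more. The ratio of folds, 0.966, was 0.936 with 6 or more regions and 0.931 and 0.848 with the q minimums, and it reversed to 1.13 with pileup in place of fold. The ratio of backgrounds, 1.19, was 1.34 with a q minimum of 10, 1.10 against windows of 3 or 4 and 1.3 against regions alone. The ratio of single-replicate peak densities, 1.86, was 2.71 with a q minimum of 5, and with a minimum of 10 the 11 dense windows held no peak of replicate 2 only. Members differing in height were 16 of 3584 tested with 4 or more regions (0.446%, against 0.428% of all regions). With a q minimum of 10 they were 5 of 55 (9.09%, against 0.661%). Only 11 dense windows remained at that minimum, and the split of these 5 over windows was not counted. In the main count, 6 of the 10 lay in the chromosome 10 window. Without that window and with no q minimum, members differing were 4 of 1813 (0.221%, against 0.428% of all regions with the window included). With weak peaks left out by a q minimum of 10, the densest windows on chromosomes 2, 3 and 14 held 2, 3 and 4 regions. Replicate 2, with 15814 peaks against 33700, limits what counts as shared, and the part of its lower depth was not tested.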
